A study of Mus musculus with 8 samples.

Results

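Bhlhe40 and Cry1 encode 2 transcriptional repressors of the circadian clock, and both were chosen by gene symbol, as 2 of the 12193 gene loci with values. Earlier results of these data were known when they were chosen, so their ranks and adjusted p are not those of genes picked blindly. In the clock of mammalian cells, the activators CLOCK and ARNTL (also called BMAL1) bind as a pair to E-box sequences and switch on the genes of their own inhibitors. The cryptochrome CRY1 joins the period proteins and blocks the activator pair, whereas BHLHE40 (also called DEC1) is a basic helix-loop-helix protein of the Orange family that binds E-boxes itself and competes there with the activators. Bhlhe40 is also known as a gene induced by low oxygen through hypoxia-inducible factor (HIF) and, in cultured cells, by growth factors and serum.

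The cells were AtT-20, a mouse pituitary tumour line with corticotrope character that makes Pomc, the precursor of the hormone ACTH. RNA was sequenced from 4 groups of 2 libraries each. The EGFR line, which carries the receptor of epidermal growth factor (EGF), received water for 3 h (EGFR water), EGF for 3 h (EGF 3 h) or EGF for 18 h (EGF 18 h), and the Neo control line received water for 3 h (Neo water). All groups were grown in the same medium with 10% fetal bovine serum, and serum is known to carry time cues for the clock. The labels do not state the species or promoter of the introduced receptor, whether a line is a clone or a pool, or whether replicates are separate cultures, so the spread behind each p-value is that of these libraries and may be technical. No Neo library received EGF, so the response to EGF cannot be compared between the lines, and no water library is labelled 18 h, so EGF and time in culture cannot be told apart at 18 h.

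Values are FPKM (fragments scaled by transcript length and library depth) as deposited by the authors. Fold changes are differences of log2(FPKM + 1), with 95% intervals and Benjamini-Hochberg adjusted p from a limma fit over 10874 loci, called below 0.05; this scale understates changes of low genes. Egfr was 26.7 ± 1.13 FPKM in EGFR water and 0.147 ± 0.114 FPKM in Neo water (SD, n = 2 each), which checks the labels. Of 7 corticotrope markers 5 had values, with Pomc between 6981 and 8930 FPKM over the 8 libraries, and of 22 markers of other pituitary and stromal cells 0 had values. Depth was estimated from small FPKM steps at 52.7 to 59.3 M fragments per library. Only steps inside a range set beforehand were used, which bounded the estimate. In each library, 24 to 29 nonzero values lay below that range, so the depth is approximate. Small RNA genes held 29.1 to 32.8% of summed FPKM in the EGFR libraries, against 39.0% in Neo water 1 and 33.2% in Neo water 2. Rescaling all libraries to a common sum moved the share of calls that were higher to 75.4% in EGF 3 h against EGFR water, from 37.5% as deposited, and to 89.1% in EGF 3 h against Neo water, from 42.6%.

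Bhlhe40 (ENSMUSG00000030103) lies on chromosome 6 of the mm10 assembly, from 108660629 to 108666925 on the plus strand, and its longest coding transcript has 5 exons and 3113 bases. Cry1 (ENSMUSG00000020038) lies on chromosome 10, from 85131702 to 85185054 on the minus strand, and its longest coding transcript has 13 exons and 3026 bases. Neither shares a stretch of at least 200 bases at 95% identity with a transcript of another gene. The antisense gene 0610040F04Rik covers 118 of the 4705 exon bases of Bhlhe40, and since no source used here states whether counting used the strand, reads in those 2.51% cannot be told apart. At this approximate depth, Bhlhe40 rested on about 356 to 1807 fragments per library and Cry1 on about 1184 to 1988. Counting error alone would then be about 2.35 to 5.3% for Bhlhe40 and 2.24 to 2.91% for Cry1.

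The E-box is the sequence through which the activators act and which BHLHE40 itself binds, and the Cry1 promoter holds it in its palindromic form, CACGTG. RefSeq promoters (GRCm38.p6, from 250 bases before to 50 after the start position of each promoter entry) were searched for CACGTG, which reads the same on both strands. Taking the first-listed promoter of each gene, it was present in 7.24% of 27025 genes and in 5 of the 12 clock genes that had both values and a promoter in the table. Counting a gene with several promoters when any of them holds it gave 8.09% of all genes and the same 5 clock genes. The 5 were Cry1, its partner Per1, the Bhlhe40 paralog Bhlhe41, the repressor Ciart and the output factor Tef. Bhlhe40 had no entry in the table. The windows below run 5′ to 3′ on the strand of the gene, with the E-box in capitals and 10 bases on each side, and for Ciart, with 3 matches, and Tef, with 2 promoters, the match shown is the one farthest upstream and the one in the first-listed promoter. They lie at chr10:85185099-85185124 (minus) for Cry1, chr11:69098773-69098798 (plus) for Per1, chr6:145865558-145865583 (minus) for Bhlhe41, chr3:95882329-95882354 (minus) for Ciart and chr15:81802536-81802561 (plus) for Tef. The Per1 and Tef windows lie inside the loci of these genes, which start at 69095217 and 81802421. A match is a description of these letters, not a bound site.
Cry1: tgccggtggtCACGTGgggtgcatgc
Per1: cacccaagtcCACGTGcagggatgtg
Bhlhe41: gtacgttccgCACGTGagctgggtgc
Ciart: catctagagtCACGTGttgccggtaa
Tef: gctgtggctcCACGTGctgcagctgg

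Bhlhe40 covered the wider range of the 2 repressors. It was lowest in EGFR water at 2.92 and 2.15 FPKM, and it stood at 9.61 and 10.6 FPKM in EGF 3 h, 7.29 and 6.67 FPKM in EGF 18 h and 7.03 and 6.46 FPKM in Neo water. The libraries of EGFR water lay below, and those of EGF 3 h above, the 6 others. Those of EGF 18 h and Neo water overlapped.

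Without EGF, Bhlhe40 averaged 2.53 ± 0.545 FPKM in EGFR water and 6.74 ± 0.402 FPKM in Neo water (SD, n = 2 each), a ratio of 0.376. The log2 fold change of −1.14 (95% interval −1.39 to −0.89, limma adjusted p = 0.00203) was the 27th most negative of the 10874 loci. Of all loci tested, 6.01% were called in this comparison, 3.11% higher and 2.9% lower, and the median log2 fold change was 0.01. Without EGFR water replicate 1 the value was −1.30 and without replicate 2 it was −0.98, both still called. In bulk RNA, fewer cells that express a gene and less of its RNA per cell cannot be told apart, here and in what follows.

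Bhlhe40 rose after EGF in the EGFR line at both times. It reached 10.1 ± 0.716 FPKM in EGF 3 h, against 2.53 ± 0.545 FPKM in EGFR water (SD, n = 2 each), which is 3.99-fold in FPKM and 1.66 on the log2 scale (1.41 to 1.91, limma adjusted p = 1.34e-04). It was the 21st largest increase of 10874, in a comparison that called 31.5% of loci, 11.8% as higher and 19.7% as lower. In EGF 18 h it was 6.98 ± 0.437 FPKM, still 2.75-fold above EGFR water and 1.18 higher on the log2 scale (0.93 to 1.43, limma adjusted p = 2.68e-04). This was the 55th largest increase, where 31.9% of loci were called and 13.2% were higher. Both EGF comparisons and the comparison of the lines share the 2 EGFR water libraries, so they are not independent of each other.

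Between the EGF times Bhlhe40 fell by 0.48 on the log2 scale in EGF 18 h relative to EGF 3 h (−0.73 to −0.23, limma adjusted p = 0.0136), a ratio of 0.690 in FPKM. In this comparison 33.7% of loci were called and 16% were lower. The call rests on single libraries: without EGF 3 h replicate 2 the adjusted p was 0.0652, and without EGF 18 h replicate 2 it was 0.0705.

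Against Neo water, in means that do not use the EGFR water libraries, Bhlhe40 was 1.5-fold higher in EGF 3 h, with a log2 fold change of 0.52 (0.27 to 0.77, limma adjusted p = 0.00967). Here 33.2% of loci were called and 14.2% were higher, and without EGF 3 h replicate 2 the adjusted p was 0.05001. In EGF 18 h the ratio to Neo water was 1.03 and the log2 fold change 0.04 (−0.21 to 0.29, limma adjusted p = 0.787), where 30.3% of loci were called. From low to high, the levels thus ran EGFR water, Neo water, EGF 18 h and EGF 3 h, and of the neighbours in this order Neo water and EGF 18 h did not differ beyond their spread.

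**Figure D1:**
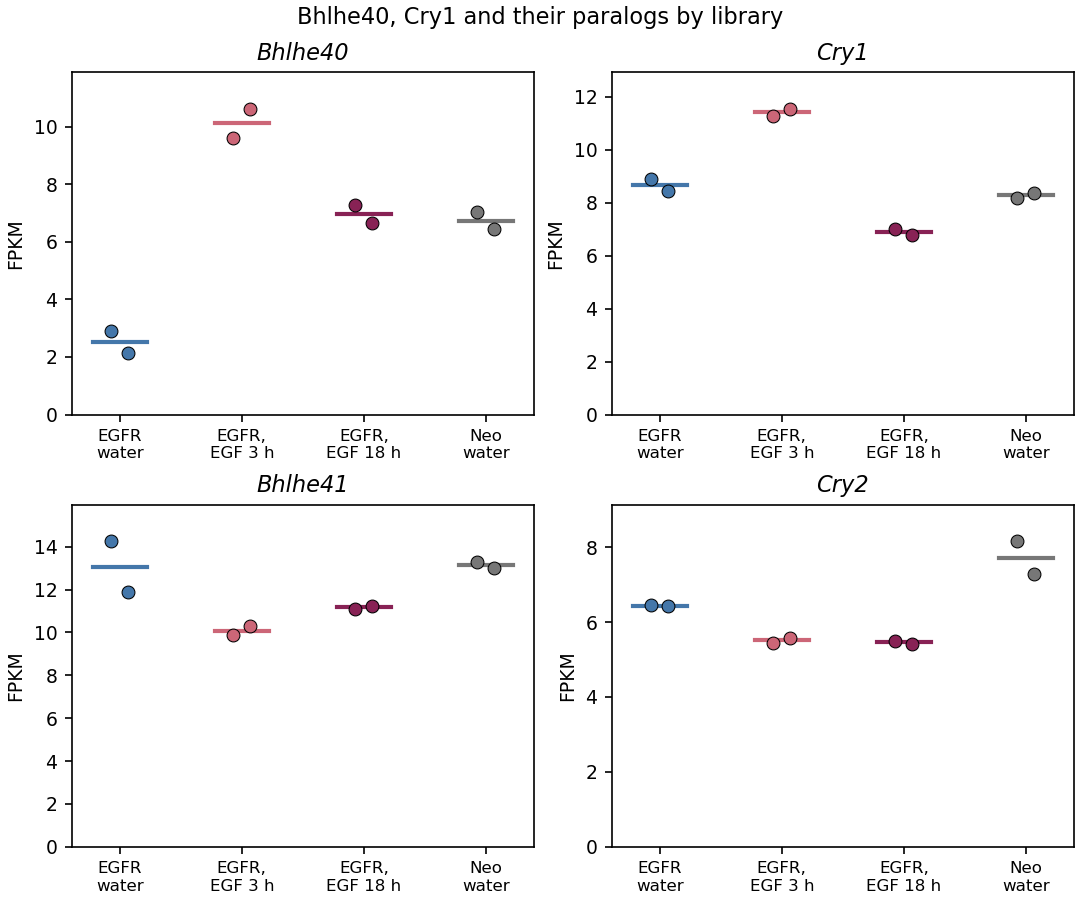
FPKM (vertical axes, starting at 0) of Bhlhe40, Cry1 and their paralogs Bhlhe41 and Cry2 in the 4 groups, with 1 point per library and a bar at the mean of 2. Bhlhe40 is lowest in EGFR water (mean 2.53) and highest in EGF 3 h (10.1), Cry1 is highest in EGF 3 h (11.4) and lowest in EGF 18 h (6.89), and neither paralog is highest in EGF 3 h.

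Cry1 moved less and in both directions. It was 8.90 and 8.46 FPKM in EGFR water, 11.3 and 11.5 FPKM in EGF 3 h, 7.0 and 6.78 FPKM in EGF 18 h and 8.17 and 8.38 FPKM in Neo water. The EGF 3 h libraries lay above the 6 others and the EGF 18 h libraries below them. The replicates were close, with SDs of 0.147 to 0.313 FPKM.

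Cry1 averaged 8.68 ± 0.313 FPKM in EGFR water and 8.27 ± 0.147 FPKM in Neo water (SD, n = 2 each). The log2 fold change of 0.06 (−0.04 to 0.16) was not called (limma adjusted p = 0.402), although the libraries did not overlap. The interval excludes a difference between the lines of the size seen for Bhlhe40.

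After 3 h of EGF, Cry1 rose to 11.4 ± 0.189 FPKM, against 8.68 ± 0.313 FPKM in EGFR water (SD, n = 2 each), a ratio of 1.31. On the log2 scale this was 0.36 (0.26 to 0.46, limma adjusted p = 0.00142), the 345th largest increase of 10874. In EGF 18 h it was 6.89 ± 0.157 FPKM, a ratio of 0.794 to EGFR water and a fall by 0.29 on the log2 scale (−0.39 to −0.20, limma adjusted p = 0.00211). In that comparison 18.7% of loci were lower. The drop between the EGF times was the largest move of Cry1. EGF 18 h relative to EGF 3 h gave −0.65 (−0.75 to −0.56, limma adjusted p = 1.73e-04), a ratio of 0.604 and the 48th most negative value of 10874.

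Set against Neo water, Cry1 was 1.38-fold higher in EGF 3 h (log2 fold change 0.42, 0.32 to 0.52, limma adjusted p = 5.32e-04). In EGF 18 h the ratio to Neo water was 0.833 (−0.23, −0.33 to −0.14, limma adjusted p = 0.00603), where 16.4% of loci were lower. This last call depended on scaling: with libraries rescaled to a common sum, under which the larger sum of Neo water 1 counts, the value was −0.13 with adjusted p = 0.183. The order from low to high was EGF 18 h, Neo water, EGFR water and EGF 3 h, in which the 2 water groups did not differ beyond their spread.

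**Figure D2:**
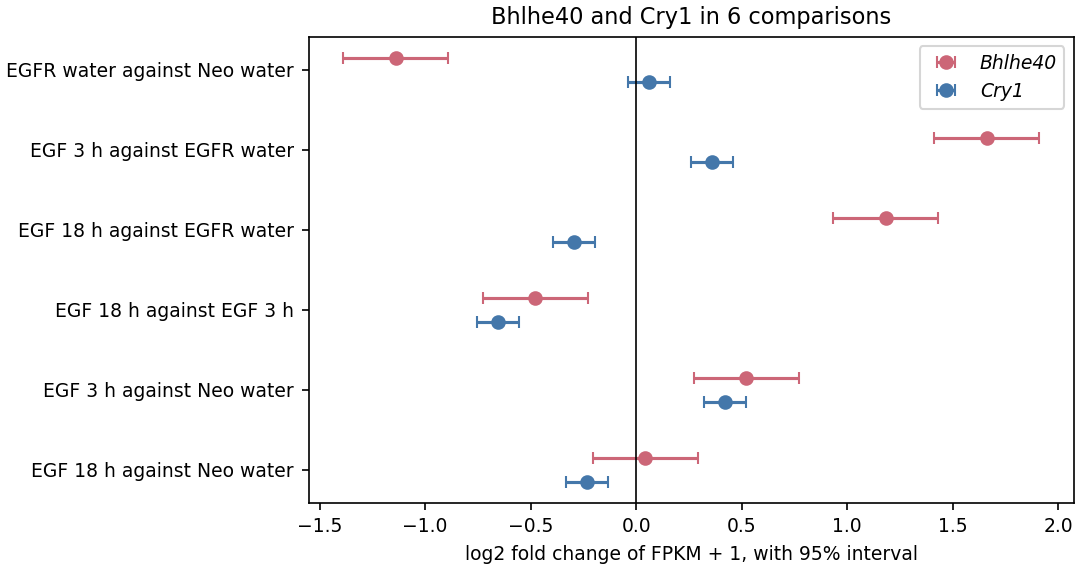
Log2 fold change of FPKM + 1 (horizontal axis) of Bhlhe40 and Cry1 in the 6 comparisons, with bars for the 95% interval of the limma fit. Against EGFR water both genes are above 0 in EGF 3 h (1.66 for Bhlhe40, 0.36 for Cry1) and lie on opposite sides of 0 in EGF 18 h (1.18 for Bhlhe40, −0.29 for Cry1), and in EGFR water against Neo water Bhlhe40 is at −1.14 and Cry1 at 0.06.

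The 2 genes shared the high level in EGF 3 h and the drop by EGF 18 h, and differed in where they stood relative to EGFR water. Pearson's r between their log2(FPKM + 1) over the 8 libraries was 0.31, a description over libraries that include replicates of 4 groups.

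The paralogs did not rise with them in EGF 3 h, while in EGF 18 h Cry2 was below EGFR water, as Cry1 was. Cry2, the second cryptochrome, was 5.44 and 5.58 FPKM in EGF 3 h and 5.49 and 5.42 FPKM in EGF 18 h, below the 6.44 and 6.42 FPKM of EGFR water and the 8.16 and 7.28 FPKM of Neo water. It fell by 0.19 in EGF 3 h (limma adjusted p = 0.0357) and by 0.20 in EGF 18 h (limma adjusted p = 0.0286) relative to EGFR water, but these calls were lost in 10 and 5 of 18 alternative settings. Within a library, the ratio of Cry1 to Cry2 in FPKM was 1.38 and 1.32 in EGFR water, 2.07 and 2.07 in EGF 3 h, 1.27 and 1.25 in EGF 18 h and 1.001 and 1.151 in Neo water. Per length, Cry1 was the more abundant cryptochrome in the 6 EGFR libraries, by the widest margin in EGF 3 h, while both were level in Neo water 1.

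Bhlhe41 (also called DEC2), the paralog of Bhlhe40, was 9.86 and 10.3 FPKM in EGF 3 h, against 14.3 and 11.9 FPKM in EGFR water, a fall by 0.34 (limma adjusted p = 0.0137) that was lost in 2 of 18 alternatives (adjusted p 0.0576 and 0.0780). It was 11.1 and 11.2 FPKM in EGF 18 h (−0.20 against EGFR water, limma adjusted p = 0.0727) and 13.3 and 13.0 FPKM in Neo water. The ratio of Bhlhe40 to Bhlhe41 within a library was 0.205 and 0.181 in EGFR water, 0.9745 and 1.031 in EGF 3 h, 0.655 and 0.593 in EGF 18 h and 0.528 and 0.496 in Neo water. Per length, Bhlhe41 was the more abundant of the pair in 7 of 8 libraries, and in EGF 3 h the levels of both were close. Bhlhe41 shares 19.0% of its exon bases with an overlapping gene. A near-identical copy covers 7.2% of its longest transcript, so part of its reads is uncertain in source.

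None of the 5 other clock repressors with values was called higher in EGF 3 h, where Bhlhe40 and Cry1 rose. With 11.8% of all loci called higher, a count of 0 among 5 genes is near the share over all loci. Of 8 listed, 5 had values (Per1, Cry2, Bhlhe41, Nr1d2 and Ciart), and in EGF 3 h against EGFR water 0 were higher and 3 lower, with a median of −0.23 against −0.04 over all loci tested, of which 11.8% were called higher and 19.7% lower. In EGF 18 h against EGFR water 0 were higher and 1 was lower (Cry2), where 13.2% of all loci were higher and 18.7% lower. All 5 values were then negative, as was that of Cry1, at a median of −0.20 against −0.03 over all loci. Nr1d2 (REV-ERB beta), which represses Arntl, was 9.20 and 9.29 FPKM in EGF 3 h, against 14.5 and 14.1 FPKM in EGFR water. It fell by 0.57 (limma adjusted p = 5.78e-04). The EGF 18 h libraries stood at 13.7 and 13.9 FPKM, not called against EGFR water (−0.04, limma adjusted p = 0.561). Nr1d2 was 0.53 higher in EGF 18 h than in EGF 3 h (limma adjusted p = 8.41e-04). Per1, which forms the inhibitory complex with the cryptochromes, gave −0.23 at both EGF times (limma adjusted p = 0.131 in EGF 3 h and 0.132 in EGF 18 h). Ciart, an inhibitor of the CLOCK-ARNTL pair, gave 0.06 in EGF 3 h against EGFR water (limma adjusted p = 0.303). Per2, Per3 and Nr1d1 are not analysed here.

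Under other scalings the 5 repressors gave 0 higher and 1 to 2 lower in EGF 3 h. In EGFR water against Neo water none of them was called as deposited, at medians of −0.02 for the list and 0.01 for all loci. Of all loci 6.01% were called in that comparison, so 0 of 5 is near that share. Ciart and Nr1d2 share 58.1% and 29.6% of their longest transcript with another gene at 95% identity, so their reads are uncertain in source.

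The activators went in both directions. Of 7 listed, 4 had values, and in EGF 3 h against EGFR water 1 was higher (Clock) and 2 were lower, among them Arntl. Over all loci tested in this comparison, 11.8% were called higher and 19.7% lower. Arntl, the partner of CLOCK, was 7.37 and 7.47 FPKM in EGF 3 h, against 9.73 and 9.58 FPKM in EGFR water (−0.34, limma adjusted p = 0.00223). It was 10.3 and 10.7 FPKM in EGF 18 h, 0.45 above EGF 3 h (limma adjusted p = 7.87e-04) and 0.11 above EGFR water, which was not called (limma adjusted p = 0.101). Arntl was thus low in EGF 3 h, where Cry1 and Bhlhe40 were high, and its libraries there lay below the 6 others.

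Clock had the opposite pattern, with 14.4 and 13.4 FPKM in EGF 3 h, against 11.7 and 11.7 FPKM in EGFR water (0.23, limma adjusted p = 0.00881; 0.0523 without EGFR water replicate 2). It was 11.6 and 11.7 FPKM in EGF 18 h, 0.24 below EGF 3 h (limma adjusted p = 0.00696). Rora, a nuclear receptor that activates Arntl, was 0.20 higher in EGF 18 h than in EGFR water (limma adjusted p = 0.0183), a call lost without 1 library in 3 of 18 alternatives. Arntl2, Npas2 and Rorb are not analysed here.

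Of the output factors, which carry clock time to other genes through D-box elements, 3 of 4 had values. Tef fell by 0.38 in EGF 3 h relative to EGFR water (4.62 ± 0.420 against 6.30 ± 0.1504 FPKM, SD, n = 2 each, limma adjusted p = 0.00472) and was 0.24 higher in EGF 18 h than in EGF 3 h (limma adjusted p = 0.0226, lost in 5 of 18 alternatives). Dbp was 0.33 lower in EGFR water than in Neo water (limma adjusted p = 0.0421) and 0.23 higher in EGF 18 h than in EGFR water (limma adjusted p = 0.0416), and these calls were lost in 10 and 11 of 18 alternatives. Another gene holds a near-identical copy of 29.5% of the longest Dbp transcript. Nfil3, which opposes Dbp and Tef at the same elements, was not called in either EGF comparison (0.07 in EGF 3 h and 0.12 in EGF 18 h).

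**Figure D3:**
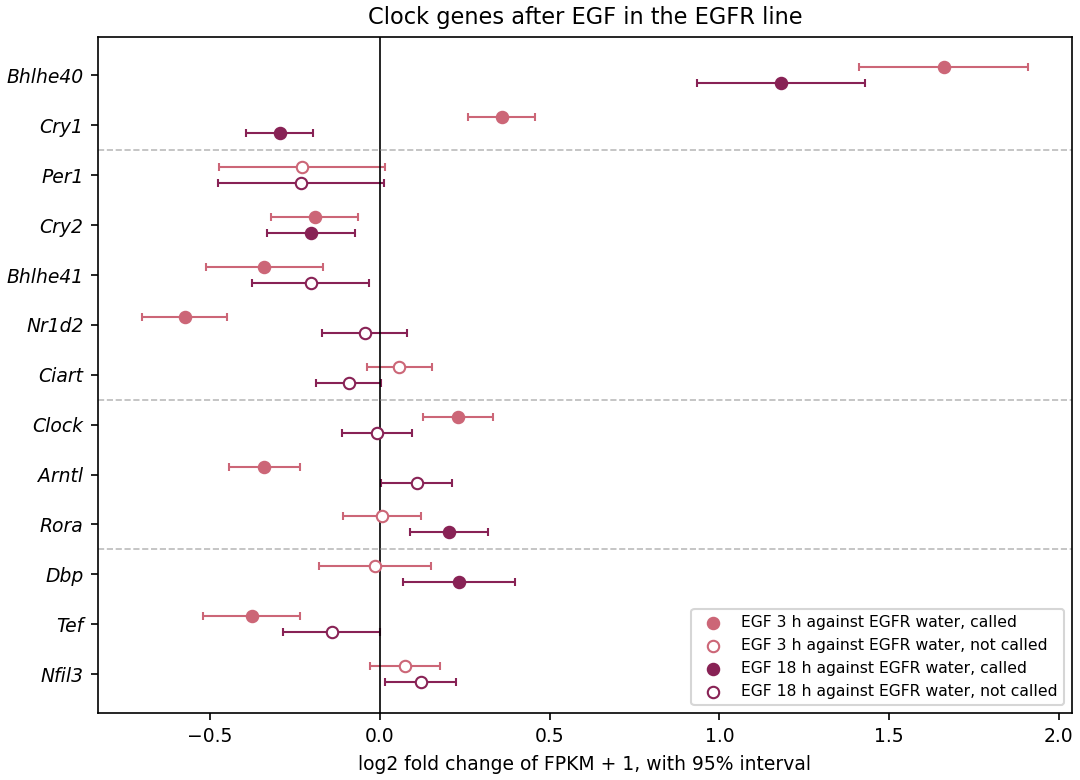
Log2 fold change of FPKM + 1 (horizontal axis, bars for 95% intervals) against EGFR water for Bhlhe40 and Cry1, the other repressors, 3 activators and the output factors, from top to bottom. Filled points passed the adjusted threshold; Bhlhe40 (1.66 in EGF 3 h) and Cry1 (0.36) lie right of 0, while Nr1d2 (−0.57), Tef (−0.38), Arntl (−0.34), Bhlhe41 (−0.34) and Cry2 (−0.19) lie left of it in EGF 3 h.

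Clock repressors are also set by the enzymes that modify and destroy CRY and PER proteins, and by partners and cofactors of clock proteins. Of 19 such regulators of either kind listed, 18 had values, and 0 were called in EGFR water against Neo water. Over all loci 6.01% were called there, so a count of 0 is near that share. In EGF 3 h against EGFR water 2 were higher and 5 lower, at a median of −0.03 against −0.04 over all loci. These counts are near the shares over all loci, 11.8% higher and 19.7% lower. Usp2, a deubiquitinase of clock proteins, was 4.28 and 3.47 FPKM in EGF 3 h, against 5.58 and 7.34 FPKM in EGFR water (−0.61, limma adjusted p = 0.0110), and 4.09 and 3.78 FPKM in EGF 18 h (−0.59 against EGFR water, limma adjusted p = 0.0109; 0.0565 without EGF 18 h replicate 2).

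Smaller calls in EGF 3 h were made for 5 others. Prkaa2, a catalytic subunit of the kinase AMPK, was 0.21 higher, and Usp7, a deubiquitinase, 0.14 higher. Ddb1 and Cul4a, parts of a cullin ubiquitin ligase, were 0.17 and 0.11 lower, and Btrc, an F-box protein that recognises phosphorylated PER, was 0.13 lower. Each of these 5 calls was lost in 4 to 13 alternatives. In EGF 18 h against EGFR water 0 regulators were higher and 4 lower: beside Usp2, these were Tipin, a partner of the timeless protein, by 0.25 (limma adjusted p = 0.00295), and Nono and Wdr5, cofactors of the PER complex, by 0.15 and 0.14. Over all loci 13.2% were higher and 18.7% lower, so the count of lower regulators was near that of all loci. A common sum left 1 of these 4 called, and 55.4% of the longest Nono transcript has near-identical copies.

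Bhlhe40 and Bhlhe41 belong to the bHLH-Orange family with the HES and HEY repressors. Of 11 members listed beside Bhlhe40, 3 had values, namely Bhlhe41, Hes1 and Hes6. Hes1, a repressor downstream of Notch signalling, ranked the 4 groups by mean in the same order as Bhlhe40, at 2.40 and 2.92 FPKM in EGFR water, 16.2 and 14.8 FPKM in EGF 3 h, 12.4 and 12.1 FPKM in EGF 18 h and 4.04 and 4.88 FPKM in Neo water. It was 2.18 higher in EGF 3 h (limma adjusted p = 2.08e-05) and 1.86 higher in EGF 18 h (limma adjusted p = 2.25e-05) than in EGFR water. Relative to Neo water, Hes1 was 0.58 lower in EGFR water (limma adjusted p = 0.0193, lost in 4 of 18 alternatives) and 1.29 higher in EGF 18 h (limma adjusted p = 9.83e-05), where Bhlhe40 gave 0.04. Hes6, which antagonises Hes1, fell by 0.27 in EGF 3 h (68.95 ± 2.89 against 83.4 ± 0.0508 FPKM in EGFR water, SD, n = 2 each, limma adjusted p = 0.00255). This call was lost in 1 of 18 alternatives, rescaling to a common sum (limma adjusted p = 0.0921).

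Because Bhlhe40 is a known HIF target, its level was set beside 20 other genes known to be induced by HIF, of which 16 had values. In EGFR water against Neo water 0 of these were higher and 14 lower, where 2.9% of all loci were lower, and the list median was −0.59 against 0.01 over all loci. Their summed level was 479 and 488 FPKM in EGFR water and 902 and 900.5 FPKM in Neo water. Rescaling to a common sum left 10 lower and median-ratio scaling 15. Bhlhe40 at −1.14 lay among the larger of these differences: Ndrg1, a stress-response gene, gave −1.44, the lactate exporter Slc16a3 −1.31, the kinase Pdk1, which limits entry of pyruvate into mitochondria, −1.12, Ankrd37 −1.04 and the collagen hydroxylase P4ha1 −1.02. Bnip3, a mitophagy receptor, gave −1.60, but 94.2% of its longest transcript has near-identical copies in other genes, so the source of its reads is uncertain. Of the exon bases of Ankrd37, 26.4% are shared with overlapping genes.

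After EGF the HIF targets went in both directions. In EGF 3 h against EGFR water 3 of the 16 were higher and 7 lower, with a median of −0.13, where 11.8% of all loci were higher and 19.7% lower. A common sum left 3 higher and 3 lower. In EGF 18 h 4 were higher and 3 lower, with a median of 0.03, where 13.2% of all loci were higher and 18.7% lower, so the lower count was near that of all loci. Against Neo water 0 were higher and 15 lower in EGF 3 h and again 0 higher and 15 lower in EGF 18 h, where 19.1% and 16.4% of all loci were lower, with summed levels of 449.7 and 465 FPKM in EGF 3 h and 515 and 477 FPKM in EGF 18 h. The 3 that rose in EGF 3 h were Ero1l, an oxidase of the endoplasmic reticulum (0.43, limma adjusted p = 4.20e-04), Ndrg1 (0.41, limma adjusted p = 0.0143) and the glucose transporter Slc2a1 (0.27, limma adjusted p = 0.0171), and the calls of Ndrg1 and Slc2a1 were lost in 2 and 3 of 18 alternatives. Of the 7 that fell, Mxi1, a MAX-binding antagonist of MYC, had the most negative value (−0.52, limma adjusted p = 4.49e-04) and was called in all 18 alternatives. Ankrd37 fell by 0.49 (limma adjusted p = 0.0173) and Bnip3l, a mitophagy receptor, by 0.39 (limma adjusted p = 0.0186), each lost in 4 of 18 alternatives. Near-identical copies in another gene cover 36.0% of the longest Bnip3l transcript. Slc16a3 and Pdk1 were not called in either EGF comparison with EGFR water.

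Of the factors themselves, Hif1a was 43.5 ± 0.625 FPKM in EGFR water and 42.2 ± 1.56 FPKM in Neo water (SD, n = 2 each, log2 fold change 0.04, limma adjusted p = 0.558). Of 10 HIF and oxygen-sensing genes listed, 6 had values, and Egln1, the oxygen-sensing hydroxylase that marks HIF for degradation, was the 1 called in this comparison, 0.45 lower in EGFR water (36.1 against 49.7 FPKM, limma adjusted p = 9.44e-04). Over all loci 6.01% were called in it, 2.9% as lower. Whether the lower HIF targets and the lower Bhlhe40 in EGFR water are linked was not tested.

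**Figure D4:**
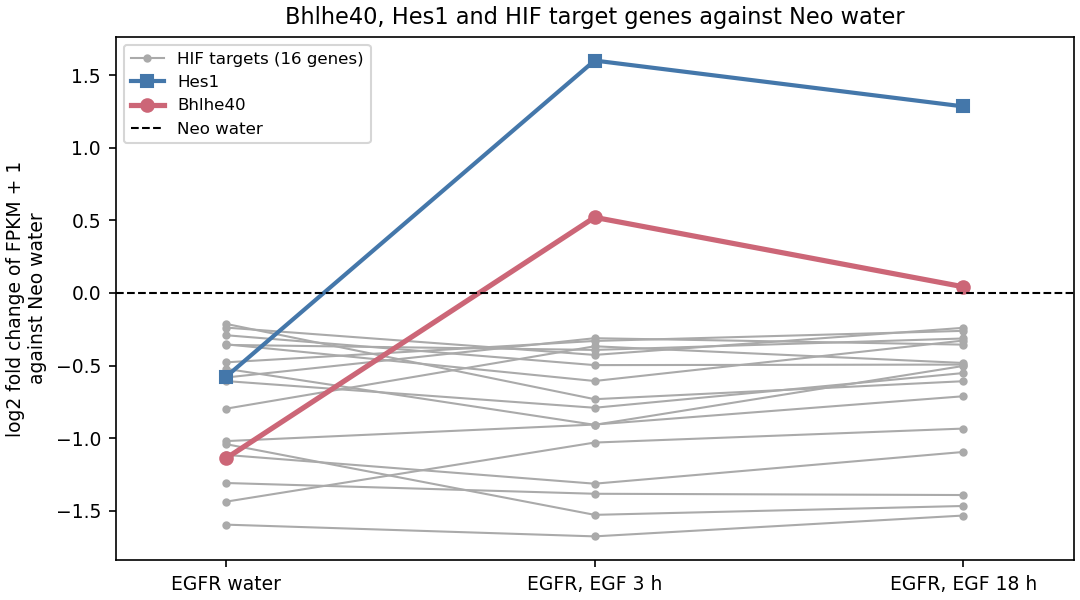
Log2 fold change of FPKM + 1 against Neo water (vertical axis; Neo water is the dashed line at 0) in the 3 EGFR groups, from the limma fit, for Bhlhe40, Hes1 and 16 HIF target genes. The HIF targets lie below Neo water in all 3 groups, Bhlhe40 lies at −1.14 in EGFR water, 0.52 in EGF 3 h and 0.04 in EGF 18 h, and Hes1 lies above Neo water in both EGF groups.

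Among 7949 protein-coding loci with a mean of at least 5 FPKM, those whose log2(FPKM + 1) was most like that of Bhlhe40 over the 8 libraries were Errfi1 (Pearson's r 0.982), Mllt1 (0.968), Pgp (0.964), Ywhag (0.964) and Fam118a (0.961). Errfi1, a feedback inhibitor of EGFR, was 9.86 and 9.70 FPKM in EGFR water, 14.7 and 15.96 FPKM in EGF 3 h, 13.6 and 12.9 FPKM in EGF 18 h and 12.7 and 12.5 FPKM in Neo water. It shared with Bhlhe40 the low EGFR water libraries and the level of EGF 18 h near that of Neo water. The other 4 had a narrower range, as for Pgp, a phosphoglycolate phosphatase, at 38.1 and 38.8 FPKM in EGFR water, against 43.7 to 47.3 FPKM elsewhere.

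For Cry1 the most alike were Fubp1 (Pearson's r 0.990), Thoc1 (0.989), Polr1a (0.982), Nbn (0.981) and Haus6 (0.980). Fubp1, a DNA-binding regulator of transcription, was 94.8 and 91.3 FPKM in EGFR water, 102.1 and 102.4 FPKM in EGF 3 h, 85.8 and 84.9 FPKM in EGF 18 h and 90.4 and 89.5 FPKM in Neo water. Nbn, a subunit of the DNA break sensor, averaged 12.5 FPKM in EGFR water, 14.3 FPKM in EGF 3 h, 11.1 FPKM in EGF 18 h and 12.6 FPKM in Neo water. Polr1a encodes the largest subunit of RNA polymerase I and Haus6 a subunit of the augmin complex of the spindle. Thoc1 encodes a subunit of the THO complex of mRNA export, and 52.5% of its longest transcript has near-identical copies. These r values are descriptions chosen as the highest of many, over 8 libraries in 4 groups, and replicates of a group share its level.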

How the data were processed

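The 8 libraries of AtT-20 cells hold FPKM of 12193 loci on mm10, deposited by the authors. Tools named in the submitters' processing notes are HTSeq 0.5.4, TopHat2 2.0.8, Trimmomatic 0.22 and DESeq. No source used here gives the program behind FPKM, the choice of loci or strandedness. Division by the library total lets a few abundant transcripts shift the rest, and FPKM is not a count, so no count model was run. Starts plus 1 matched GENCODE M21 for 9829 of 12129 identifiers and were read as 0-based.

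Loci with 1 FPKM or more in 2 or more libraries (10874; both genes pass in all groups) were fitted by limma-trend on log2(FPKM + 1) with 4 groups and no block (4 residual and 3.29 prior degrees of freedom), tested on simulated data, and p adjusted by Benjamini-Hochberg within each of 6 comparisons. The members and gene lists were chosen with earlier results of these data known. Some listed genes are not reported here and count only in totals. Named genes are, of each list, the called members (up to 6 by size) or else those most expressed, and the 5 loci most like each gene without Gm, Rik, Rpl and Rps names. The 18 alternatives were pseudocount, 2 filters, protein-coding loci, 3 scalings, 2 groups in the fit, no variance trend, replicate block and each library left out. Copies were sought with minimap2 2.31 against M21 transcripts. Fragments were estimated from FPKM, the longest coding transcript and the depth. The depth came from the FPKM steps of 17 to 26 loci per library inside a range set beforehand, with nonzero values below it left out. The error percentages given with the fragment estimates cover counting error only, whereas the 95% intervals of fold changes come from the limma fit. Tools were R 4.3.3, limma 3.58.1, Python 3.11.15, pandas 2.3.3, NumPy 2.4.6 and matplotlib 3.10.9.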

Additional observations from a re-analysis of the deposited data

How the results depend on the processing

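Over 18 alternatives for each of the 12 results on Bhlhe40 and Cry1, 210 of 216 values kept their direction and their side of the threshold, 4 lost the call and 2 changed sign. With a common sum, Cry1 in EGF 18 h against Neo water was −0.13 (adjusted p = 0.183). Leaving out 1 library at a time, Bhlhe40 ranged from −0.54 to −0.41 in EGF 18 h against EGF 3 h, from 0.46 to 0.59 in EGF 3 h against Neo water, and from −0.01307 to 0.10 in EGF 18 h against Neo water, where the value is not called and the 2 sign changes occurred (−0.01307 without EGF 18 h replicate 1, −0.01007 without Neo water replicate 2). The cause was not tested. Where 1 library is left out, its partner is assumed to vary like the other groups. For libraries with the same replicate number, deviations from group means correlated between −0.172 and 0.31. The lowest value was for EGFR water with Neo water and the highest for EGF 18 h with Neo water. These values show no pairing across all 4 groups, and whether some groups shared a batch was not tested. With the replicate block, 382 loci were called in EGFR water against Neo water (653 without it), and no call of Bhlhe40 or Cry1 changed.

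Counts over all loci were less stable. With a common sum they were 412, 1786, 1894 and 2193 (of 653, 3425, 3467 and 3663) in EGFR water against Neo water, EGF 3 h and EGF 18 h against EGFR water, and EGF 18 h against EGF 3 h, and its median shift was 0.13 in EGF 3 h and 0.09 in EGF 18 h against Neo water. With 2 groups in the fit, 293 were called in EGFR water against Neo water. Leaving out 1 library gave as few as 85, 1445, 1795 and 1877 in these 4 comparisons, and 2138 and 1835 in EGF 3 h and EGF 18 h against Neo water (of 3614 and 3294). The share of higher calls with a common sum was 75% (51.8% as deposited), 75.4% (37.5%), 62.8% (41.4%), 39.4% (52.5%), 89.1% (42.6%) and 85.5% (45.8%) over the 6 comparisons in this order, and with median-ratio scaling 53.1% and 53.6% in the EGF comparisons with EGFR water. With 2 libraries a group, counting error (about 2.24 to 2.91% for Cry1 at the approximate depth) and the spread between replicates both limit a difference as small as that of Cry1 between the lines.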
